A study of Mus musculus with 10 samples.

Results

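Hemoglobin is built from alpha-type and beta-type globin chains, and the genes analysed here are the 7 that encode the mouse chains of the embryo and of later life. Hba-a1 and Hba-a2 encode the adult alpha chain and Hbb-bs and Hbb-bt the adult beta chains, while Hba-x (zeta), Hbb-y (epsilon-y) and Hbb-bh1 (beta-h1) encode embryonic chains. They were taken by name and are 7 of the 31053 genes counted in single cells of the mouse cortex at E16.5. Cells with at least 1000 unique molecular identifiers (UMIs, each marking 1 captured mRNA molecule) and at most 10% mitochondrial UMIs were kept, and a kept cell was called erythroid where at least 20% of its UMIs came from these 7 genes. That left 1646 erythroid cells of 65779 kept cells, so the high globin level of the erythroid cells is the rule that chose them and not a result, whereas the mixture of globin genes within a cell was not used to choose it.

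The 10 cortices were profiled whole, each from 1 embryo and in 1 droplet library: 3 WT, 4 Het and 3 KO. All embryos were of the C57BL/6N-A tm1Brd background. Het embryos carried 1 and KO embryos 2 copies of Gatad2b stop, the Gatad2b tm1a(EUCOMM)Hmgu allele, a gene-trap cassette in an intron. The allele is carried in the germ line, so blood cells carry it as well as cortical cells. No sort preceded the capture, and the sex of the embryos was not used here.

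As background, the first red cells of the mouse embryo arise in the yolk sac and make embryonic globins. Later red cells come from the fetal liver and make adult globins, and in mid-gestation both circulate together. In each cluster the embryonic genes lie at 1 end and the adult genes at the other, and silencing of the embryonic beta-type genes involves the transcription factor Bcl11a and the nucleosome remodelling and deacetylase (NuRD) complex, of which Gatad2b is a subunit.

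Gatad2b itself followed the labels. Its level over all cells, in counts scaled to a common library total (CPM), was 139.2, 130.7 and 133.5 in WT 1 to 3, 94.2, 89.8, 90.0 and 95.7 in Het 1 to 4, and 50.9, 52.8 and 57.3 in KO 1 to 3. The 3 genotypes did not overlap, and with edgeR the log2 fold change against WT was -0.54 in Het (adjusted p = 0.000756) and -1.32 in KO (adjusted p = 1.11e-07).

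Libraries held 8.29e+07 to 1.24e+08 UMIs in kept cells, with a median of 10795 to 17077.5 UMIs per cell. The library names carry 1 of 2 prefixes, whose meaning was not stated: WT 1 to 3 share theirs with Het 4, and Het 1 to 3 share theirs with KO 1 to 3, so WT against KO and the prefix cannot be told apart. Of 79307 distinct cell barcodes, 754 occurred in more than 1 library, and none of the erythroid barcodes was erythroid in more than 1. Het 3 stood apart outside the erythroid cells: 301 of its cells (5.54%) held at least 20 globin UMIs at 0.1 to 5% of their total, against 0 to 8 cells in each other library. In sums over all cells, the number of erythroid cells and the globin RNA of each cannot be told apart, and both are given separately below.

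The beta-type genes lie on chromosome 7, on the minus strand (GRCm38, GENCODE vM21). Hbb-bt spans 103812524 to 103813996, Hbb-bs 103826534 to 103828096, Hbb-bh1 103841637 to 103843164 and Hbb-y 103851749 to 103853216. The alpha-type genes lie on the plus strand of chromosome 11, Hba-x at 32276400 to 32278116, Hba-a1 at 32283511 to 32284465 and Hba-a2 at 32296489 to 32297298. The 2 adult genes of each type are near copies: the last 300 bases of their transcripts, which this 3′ assay reads, were 89.56% identical for Hba-a1 and Hba-a2, with a longest shared run anywhere in the transcripts of 415 bases, and 86.14% identical for Hbb-bs and Hbb-bt, with a longest run of 430 bases. How the counting divided reads between such copies is uncertain, so the split within each pair is less sure than the split between adult and embryonic genes, where Hbb-y and Hbb-bs were 65.19% and Hba-x and Hba-a1 58.16% identical.

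The 120 bases before the RefSeq start of 6 of the genes, shown because the adult and embryonic genes were found in different cells below, are printed here from the RefSeq promoter table (GRCm38.p6), 5′ to 3′ on the strand of the gene. Hbb-bh1 was not matched. The RefSeq starts differ from the GENCODE ends given above, so that the windows of Hba-x, Hba-a1 and Hbb-bs lie within the GENCODE gene and the other windows overlap its first bases. Capitals mark the motifs described after the sequences, on the printed strand or, as the reverse complement, on the other.
Hba-x, chr11:32276480-32276599: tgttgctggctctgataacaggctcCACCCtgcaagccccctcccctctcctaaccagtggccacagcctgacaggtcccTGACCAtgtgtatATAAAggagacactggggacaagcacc
Hba-a1, chr11:32283552-32283671: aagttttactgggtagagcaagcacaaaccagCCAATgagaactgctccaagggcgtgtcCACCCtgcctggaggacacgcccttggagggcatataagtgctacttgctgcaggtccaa
Hba-a2, chr11:32296372-32296491: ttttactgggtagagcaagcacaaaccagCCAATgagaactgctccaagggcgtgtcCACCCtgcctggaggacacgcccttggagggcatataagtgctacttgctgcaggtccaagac
Hbb-y, chr7:103853208-103853327: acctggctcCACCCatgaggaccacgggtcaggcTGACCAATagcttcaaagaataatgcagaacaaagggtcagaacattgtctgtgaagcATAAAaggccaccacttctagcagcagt
Hbb-bs, chr7:103827929-103828048: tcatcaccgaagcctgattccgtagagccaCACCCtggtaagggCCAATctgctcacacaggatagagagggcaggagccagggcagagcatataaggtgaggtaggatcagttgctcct
Hbb-bt, chr7:103813924-103814043: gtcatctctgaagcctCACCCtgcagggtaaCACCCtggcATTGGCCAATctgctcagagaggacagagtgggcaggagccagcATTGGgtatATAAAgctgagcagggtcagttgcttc

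CACCC, the core of sites bound by Klf1-type factors, stood in all 6 windows and in 31.7% of 32817 promoter windows of this length on either strand. CCAAT stood in 5, all but Hba-x, against 21.3% of all windows, and ATAAA in Hba-x, Hbb-bt and Hbb-y against 20.2%. TGACCA, the core of a direct-repeat element known from embryonic globin promoters, stood in Hba-x and Hbb-y, the 2 embryonic genes shown, and in 5.56% of all windows. In Hbb-y it overlaps the CCAAT match. AGATAA, a form of the site that Gata1 binds, was in none of the 6 windows and in 4.36% of all. Other forms of that site were not searched or marked, and the Hba-x window holds TGATAA. The windows of Hba-a1 and Hba-a2 shared a run of 117 bases, those of Hbb-bs and Hbb-bt 1 of 14. These are matches of letters and not measured sites.

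Erythroid cells made up 2.20, 3.41 and 2.95% of kept cells in WT 1 to 3, 2.93, 3.22, 3.15 and 1.20% in Het 1 to 4, and 2.27, 2.12 and 1.80% in KO 1 to 3. Het 4 lay below every other library, and WT 1 lay below KO 1. The differences of the means were -0.226 percentage points for Het minus WT (exact permutation p = 0.8), -0.789 for KO minus WT (exact p = 0.2, where 3 against 3 embryos cannot go below 0.1) and -0.564 for KO minus Het (exact p = 0.4). Without Het 4 the Het minus WT difference turned to 0.249 points and KO minus Het went to -1.04 points (exact p = 0.1, the lowest that 3 against 3 allow), with every KO embryo below the other Het embryos, which share their prefix. Globin UMIs per erythroid cell were 7358, 8022 and 5979 in WT 1 to 3, 9182, 10348, 10212 and 7466 in Het 1 to 4, and 11260, 11440 and 9992 in KO 1 to 3, with every KO embryo above every WT embryo and Het 4 within the range of WT. Since the 20% line is on globin and the prefix cannot be told apart from KO against WT, these levels are given with no test. They were also not corrected for depth. The median UMIs of other cells were 11964, 15202 and 10932 in WT 1 to 3, 14922, 13253, 14952.5 and 14562.5 in Het 1 to 4, and 17203, 14636 and 14386 in KO 1 to 3.

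The erythroid cells carried markers of red cells, at least 3 of them in 21.6% of cells. Alas2, the first enzyme of heme synthesis in red cells, had a UMI in 82.9% of them and in 0.847% of other cells, and Slc4a1 (band 3) in 23.1 and 0.0452%, although the erythroid cells had a lower median of 9644.5 UMIs against 13995. Tfrc, the transferrin receptor, which erythroblasts carry and mature red cells lose, was found in 3.77% of erythroid and 25.1% of other cells, and Hemgn in 3.83 and 0.0172%. At least 3 markers of another cell class were found in 128 of the 1646 erythroid cells. Most cells lay far from the 20% line: 1628 held at least 25% globin, with a median of 348.5 genes, while the 18 cells at 20 to 25% and the 21 cells at 15 to 20% had medians of 5325 and 4849 genes.

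Embryonic globins were nearly all or nothing in single cells. In 6 of 1646 erythroid cells (0.365%, exact binomial 95% interval 0.134 to 0.792%) the embryonic genes gave 82.3 to 95.7% of the cell's globin UMIs. In each of the other 1640 cells they gave at most 0.0276%, and no cell lay between. These 6 cells held 12214 of the 12249 embryonic globin UMIs of all erythroid cells, or 99.7%. Among the remaining cells 22 had any embryonic UMI, with 35 in all and at most 5 in a cell. Intervals of this kind cover counting error alone.

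**Figure D1:**
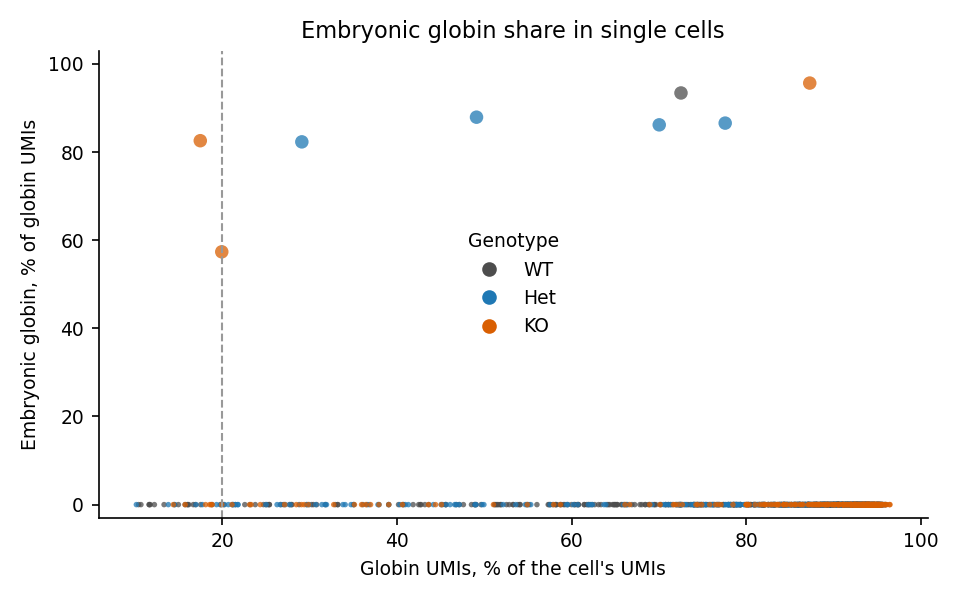
Each point is 1 kept cell with at least 10% globin, by genotype, with globin as a percent of the cell's UMIs (x axis) and the embryonic share of its globin UMIs in percent (y axis). Right of the dashed 20% line the 6 cells with mostly embryonic globin sit at 82.3 to 95.7% and the other 1640 lie at or next to 0, and 2 KO barcodes with mostly embryonic globin lie just left of it.

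Within these 6 cells Hbb-y and Hba-x led. Hbb-y gave 55.0% and Hba-x 35.0% of their summed globin UMIs, with 534 to 1975 and 105 to 1614 UMIs per cell. Hbb-bh1 gave 0.236% (32 UMIs), far below Hbb-y although both encode embryonic beta-type chains. Of the adult genes Hba-a1 gave 5.77%, Hba-a2 2.58%, Hbb-bs 0.835% and Hbb-bt 0.562%, so the adult alpha genes stood above the adult beta genes. In the 1640 remaining cells the order was Hbb-bs at 53.7%, Hba-a1 at 18.1%, Hbb-bt at 14.7% and Hba-a2 at 13.5%. The 6 cells were smaller in UMIs (1468 to 5138) than the median of the others (9729.5), and had none of the erythroid markers measured.

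Across all erythroid cells the gene most alike to Hbb-y was Hba-x (Pearson r = 0.990 over 1646 cells, on log values of UMIs per 10000 centred within each embryo), followed by Hbb-bh1 (r = 0.767). The nearest gene that is no globin was Cstb, an inhibitor of lysosomal proteases, at r = 0.323. These correlations rest on the few cells of mostly embryonic globin, which had few UMIs and of which 3 came from Het 4. They are given as a description.

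The 6 cells came from 4 embryos: 1 from WT 2, 1 from Het 3, 3 from Het 4 and 1 from KO 1. By genotype this was 1 of 652 cells in WT (0.153%, exact interval 0.00388 to 0.852%), 4 of 641 in Het (0.624%, 0.170 to 1.59%) and 1 of 353 in KO (0.283%, 0.00717 to 1.57%). These intervals pool cells of several embryos and do not compare genotypes, and 3 of the 4 Het cells were from Het 4. In the 6 embryos with none, a limit of 3 counts allows a share of up to 1.30 to 2.75%, and the exact intervals reach 1.59 to 3.33%.

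Whether Gatad2b loss goes with more embryonic globin was addressed by the embryonic share of globin UMIs per embryo. In erythroid cells it was 0, 0.153 and 0.000218% in WT 1 to 3, 0.000127, 0.000342, 0.0492 and 0.712% in Het 1 to 4, and 0.220, 0.000160 and 0.000541% in KO 1 to 3. Each embryo with a mostly embryonic cell lay at 0.0492% or above and each without at 0.000541% or below, and the genotypes overlapped. The differences of the means were 0.139 points for Het minus WT (exact permutation p = 0.771), 0.0222 for KO minus WT (exact p = 0.6) and -0.117 for KO minus Het (exact p = 0.857), and the slope was 0.0111 points per mutant allele (exact p = 0.900). Over the 8 tests of both cell sets each of these had an adjusted p of 0.900. The directions rest on single embryos: without Het 4 Het minus WT was -0.0346 and KO minus Het 0.0569, and without KO 1 KO minus WT was -0.0508 points. With the 6 cells set aside, the embryonic share was 0.000216% of globin UMIs in WT, 0.000261% in Het and 0.000234% in KO, from 10, 16 and 9 UMIs.

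Outside the erythroid cells the embryonic share was 0.00560, 0.0128 and 0.0530% in WT 1 to 3, 0, 0.0154, 0.00653 and 0.0903% in Het 1 to 4, and 0.0476, 0.175 and 0.442% in KO 1 to 3. KO 2 and KO 3 were the 2 highest, and KO 1 lay within the WT and Het ranges. The mean was 0.0238 ± 0.0256% (SD, n = 3) in WT, 0.0281 ± 0.0420% (n = 4) in Het and 0.221 ± 0.201% (n = 3) in KO. KO minus WT was 0.198 points (exact p = 0.2) and KO minus Het 0.193 points (exact p = 0.0571), and the slope of 0.0988 points per mutant allele had an exact p of 0.04 that was 0.229 after adjustment over the 8 tests. The 4 barcodes of mostly embryonic globin below the 20% line carry much of this: 2 in KO 3 at 17.5 and 19.95% globin with 153 and 125 Hba-x UMIs, 1 in KO 2 with 22 and 1 in Het 4 with 27. Without barcodes of mostly embryonic globin the slope was 0.00302 points (exact p = 0.714), and without KO 3 it was 0.0402.

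These barcodes had another mixture than the 6 erythroid cells. Hba-x outnumbered Hbb-y by 6.58 to 22-fold in them, while in the 6 cells the ratio of Hba-x to Hbb-y was 0.156 to 0.883. Another 5 barcodes with mostly embryonic globin failed the UMI or mitochondrial limits, 1 in WT 1, 2 in WT 2, 1 in WT 3 and 1 in KO 2. Between erythroid and other cells of the same embryo the embryonic share was higher in the erythroid cells of 5 of 10 embryos (mean difference 0.0287 points, exact sign-flip p = 0.752). Against other cells with at most 1% globin it was lower in the erythroid cells of 7 of 10 embryos (mean difference -0.118 points, exact p = 0.0469, not adjusted for the 3 cell sets compared), and against those with under 0.1% also of 7 of 10 (-0.0202 points, exact p = 0.727).

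The adult genes held nearly fixed proportions. In erythroid cells Hbb-bs gave 51.6, 53.0 and 53.3% of globin UMIs in WT 1 to 3, 54.9, 53.5, 54.4 and 52.2% in Het 1 to 4, and 54.1, 54.9 and 53.8% in KO 1 to 3. Hba-a1 gave 19.2, 18.5 and 18.8% in WT, 17.6, 18.1, 18.2 and 18.0% in Het, and 17.7, 16.6 and 18.0% in KO. All 3 WT values of Hba-a1 lay above all 7 Het and KO values, the nearest being 18.5% in WT 2 and 18.2% in Het 3. Every KO value of Hbb-bs lay above every WT value. Hbb-bt ranged from 13.8 to 15.6% and Hba-a2 from 12.9 to 13.7% with no such order. The shares are parts of 1 total, so they do not vary independently. For CPM in erythroid cells, 9.11% of genes separated Het from WT embryos in full and 13.7% separated KO from WT embryos. Hba-a1 was not among these genes in either comparison.

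Within the adult alpha pair Hba-a1 was 58.4, 57.8 and 58.3% in WT, 57.3, 57.1, 57.2 and 56.9% in Het, and 56.3, 56.3 and 57.2% in KO. Again the WT embryos did not overlap the rest, and Het 4, which shares the library prefix of WT, had the lowest Het value at 56.9%. Since the 2 genes are near copies, this is a difference in how UMIs were divided between them of under 3 points, and it was noticed in the data and not tested. All alpha-type genes together gave 32.4 ± 0.388% (SD, n = 3) of globin UMIs in WT, 31.5 ± 0.533% (n = 4) in Het and 30.8 ± 1.17% (n = 3) in KO, so beta-type UMIs outnumbered alpha-type UMIs in every embryo. UMIs of different genes were compared here without a correction for how well each 3′ end is captured.

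**Figure D2:**
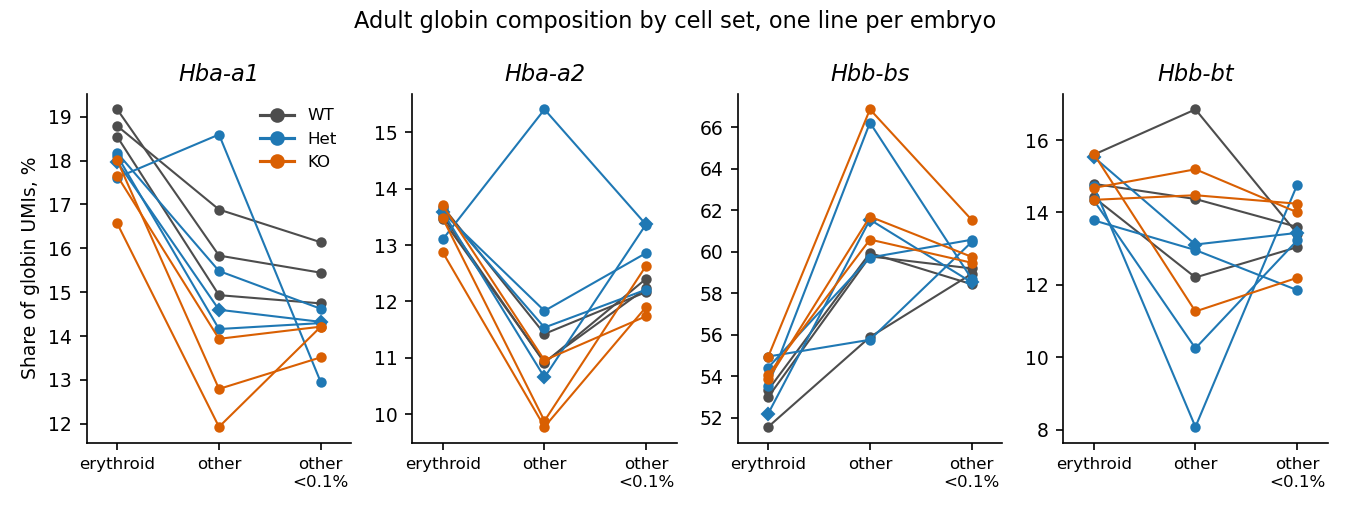
Share of each adult globin gene among globin UMIs, in percent, in erythroid cells, all other cells and other cells with under 0.1% globin. Each line is 1 embryo, coloured by genotype, with Het 4 as diamonds, and the y axes do not start at 0. In erythroid cells the 3 WT values of Hba-a1 lie above the 7 others, and Hbb-bs is lower in erythroid cells than in other cells of every embryo.

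Globin UMIs in the other cells did not have the mixture of the erythroid cells. In the cells with under 0.1% globin, a set chosen after the data were seen, Hbb-bs gave 59.6 ± 1.02% of globin UMIs against 53.6 ± 1.11% in erythroid cells (SD, n = 10 embryos) and was lower in the erythroid cells of 10 of 10 embryos. Hba-a1 gave 14.4 ± 0.897% against 18.1 ± 0.716% and was higher in the erythroid cells of 10 of 10. Hba-a2 (12.5 against 13.5%) and Hbb-bt (13.4 against 14.8%) were higher in the erythroid cells of 9 of 10. The mean paired differences were -5.97 ± 0.713 points for Hbb-bs and 3.61 ± 0.708 points for Hba-a1, several times the spread between embryos. In all cells under the 20% line Hbb-bs again differed in 10 of 10 embryos, by -7.21 ± 3.51 points, and Hba-a1 in 9 of 10, by 3.14 ± 1.72 points.

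The split between the adult beta genes varied between erythroid cells. Hbb-bt made up a median of 18.1% of adult beta UMIs per cell over the 1640 cells, and the values fell into a low and a high mode: 287 cells lay under 5%, 279 at 5 to 10%, 177 at 10 to 15% and 147 at 15 to 20%, and then 370 at 20 to 25% and 301 at 25 to 30%. The share rose with the UMIs of the cell. In 4 bins of 410 cells ordered by UMIs the median was 4.77% at 1001 to 4252 UMIs, 9.67% at 4260 to 9716, 22.9% at 9743 to 15401 and 26.3% at 15407 to 120905. Within each embryo Spearman's rho between the share and the cell's UMIs was 0.703 to 0.892 over its cells, given as a description. Alpha-type genes varied far less over the same bins, with medians of 29.8, 30.3, 32.2 and 32.2% of globin UMIs.

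**Figure D3:**
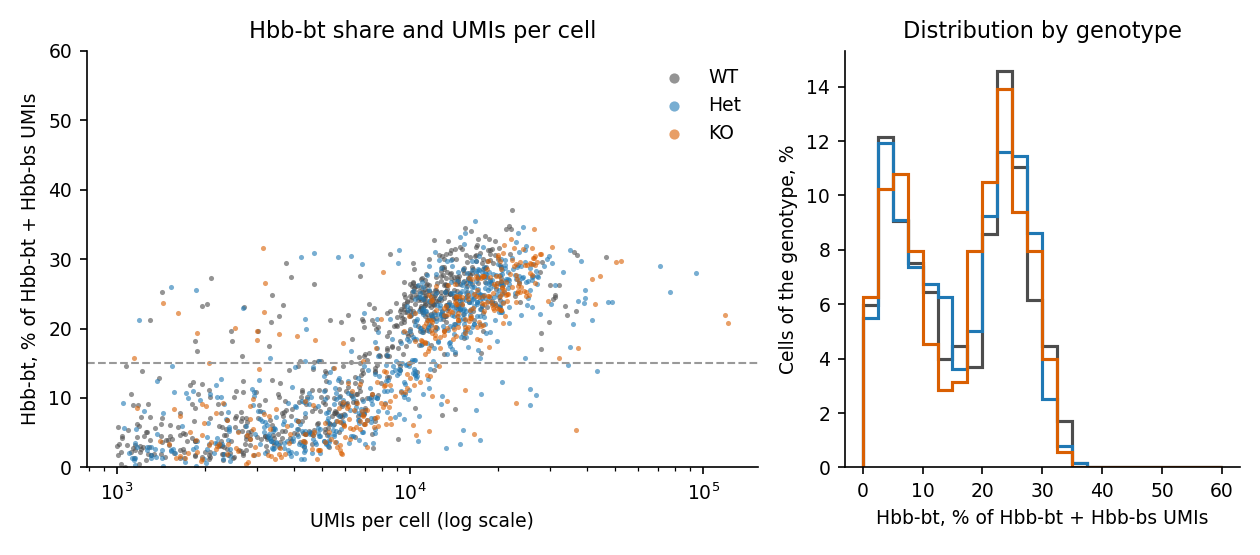
Hbb-bt share of adult beta-globin UMIs in each erythroid cell, in percent, against the UMIs of the cell (log axis), with the 15% line dashed, and the distribution of the share as percent of the cells of each genotype. The share has a low and a high mode in every genotype and its median rises from 4.77% in the bin of cells with fewest UMIs to 26.3% in the bin with most.

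Low and high shares were present in every embryo, with 10th percentiles of 2.55 to 4.80% and 90th percentiles of 27.0 to 29.8%. Whether each embryo had separate modes was not tested. Cells with at least 15% Hbb-bt, a line set after seeing the values, were 59.6, 56.4 and 49.6% of erythroid cells in WT 1 to 3, 51.5, 58.1, 46.6 and 57.6% in Het 1 to 4, and 54.5, 63.3 and 55.0% in KO 1 to 3. The group means were 55.2 ± 5.10% (SD, n = 3) in WT, 53.4 ± 5.47% (n = 4) in Het and 57.6 ± 4.94% (n = 3) in KO, with overlap between all groups.

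The Hbb-bt-high cells differed in other genes too. They are given as CPM over UMIs that are not globin, with no test and no count of genes, and were picked after their values were seen. Slc4a1 stood at 484 against 7.74 CPM, Car2 (carbonic anhydrase) at 1666 against 41.2, and Bpgm, which makes the 2,3-bisphosphoglycerate that lowers the oxygen affinity of hemoglobin, at 6923 against 1105. Hbq1b, a theta-globin gene of the alpha cluster, stood at 96.9 against 2.87. Its paralog Hbq1a stood at 115 against 66.8, higher in 7 embryos and lower in 3. Alas2 differed less than Slc4a1, Car2, Bpgm and Hbq1b, at 6991 against 4086. In the cells with less Hbb-bt, the values of Slc4a1, Car2 and Hbq1b rest on only 4, 33 and 2 UMIs over all embryos. The size of their difference is therefore unsure. Rpl41 and Rplp1, which encode ribosomal proteins, stood lower, at 7139 against 11958 and 2531 against 3767. The high cells also had more UMIs (a median of 14556 against 4252), and the part of depth in these differences was not tested.

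Over all cells, globin took 1.27, 1.72 and 1.46% of UMIs in WT 1 to 3, 1.65, 2.22, 1.92 and 0.614% in Het 1 to 4, and 1.39, 1.52 and 1.20% in KO 1 to 3. Het 4, which had the fewest erythroid cells, was lowest and the other genotypes overlapped. A gene was called changed where edgeR gave it an adjusted p below 0.05 together with a log2 fold change beyond 0.25 in either direction. None of the 6 members tested was called in any comparison, against 2.98% of the 17647 genes tested in Het vs WT, 24.5% in KO vs WT and 5.50% in KO vs Het. Hbb-bh1 did not pass the filter on low counts.

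The adult log2 fold changes over all cells ran from 0.09 (Hba-a1) to 0.18 (Hbb-bs) in Het vs WT, from -0.19 (Hba-a1) to -0.03 (Hbb-bs) in KO vs WT, and from -0.28 (Hba-a1) to -0.17 (Hbb-bt) in KO vs Het, each with a standard error of 0.31 to 0.35. No member had an unadjusted p under 0.05 (the lowest was 0.404, Hba-a1 in KO vs Het) and none was called by DESeq2. Leaving out Het 4 changed this: Hba-a2 (log2 fold change 0.42) and Hbb-bs (0.46) were then called in Het vs WT, where 10.4% of genes were, and Hba-a1 (-0.55) and Hba-a2 (-0.51) in KO vs Het, where 5.91% were. With the library prefix as a covariate, a fit in which Het 4 alone ties the prefix to the genotypes, the direction in Het vs WT turned, with Hba-a1 (-1.34), Hba-a2 (-1.27) and Hbb-bs (-1.26) called lower where 0.232% of genes were called. In that fit 4 members were called in KO vs WT and 2 in KO vs Het, where 8.31% and 5.88% of genes were.

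Within the erythroid cells no gene of 5410 was called in any comparison (0% in each) with edgeR, while 409 genes in Het vs WT, 692 in KO vs WT and 203 in KO vs Het had an unadjusted p under 0.05, and DESeq2 called 0, 8 and 0. All 7 members were tested here. The adult genes had log2 fold changes of 0.21 to 0.31 in Het vs WT, 0.54 to 0.73 in KO vs WT and 0.33 to 0.44 in KO vs Het, with standard errors of 0.35 to 0.42. For Hbb-bs in KO vs WT the log2 fold change was 0.73 ± 0.41 (SE, adjusted p = 0.493). The line that chose these cells is on globin itself, the quantity tested. For the globin genes the test therefore cannot decide whether their level differs between genotypes. These folds are relative to the non-globin RNA of the same cells, because edgeR's scaling factors, 0.507 to 1.45, are set by the many genes that are not globin.

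A cut at 50% globin in place of 20% gave calls, although the cut is on globin itself, the quantity tested. With 1878 genes tested, all 4 adult genes were called higher in KO vs WT, with log2 fold changes of 1.42 (Hba-a1) to 1.57 (Hbb-bs), against 10.6% of all genes called higher and 12.6% called in either direction. Hbb-bs (0.89) and Hbb-bt (0.81) were called in Het vs WT, where 0.639% of genes were called, and Hbb-bt (0.71) in KO vs Het, where 2.24% were. The scaling factors moved the median of all genes in KO vs WT by 1.42 on the log2 scale, and without scaling factors the 4 adult genes had log2 fold changes of -0.03 to 0.12. The largest, 0.12 for Hbb-bs in KO vs WT, had an edgeR adjusted p of 0.00131. Globin already took 86.4% of UMIs in these WT cells, so on that scale the 4 genes together could not rise by the 0.25 needed for a call, and the lack of calls there says nothing. Of all genes 45.2% were called in Het vs WT, 81.7% in KO vs WT and 3.46% in KO vs Het. Nearly all of these were called lower, at 45.1%, 81.5% and 3.41% of all genes.

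In plain shares, for which the cut is again on globin itself, KO lay above WT except for the summed share at the 20% line. In adult-type cells of at least 50% globin, globin took 85.9, 88.2 and 85.2% of UMIs in WT 1 to 3, 90.6, 90.8, 92.3 and 88.3% in Het 1 to 4, and 93.1, 92.4 and 91.8% in KO 1 to 3. KO lay above WT in full there, and Het 4, of the same library prefix as WT, lay nearest to WT. At a minimum of 80% the order was the same, at 88.5 to 90.0% in WT and 92.1 to 93.4% in KO. At the 20% line the summed shares overlapped, at 79.3, 81.2 and 78.2% in WT, 80.9, 86.4, 76.4 and 81.3% in Het, and 79.4, 89.0 and 82.0% in KO, while the median share per cell did not overlap between WT and KO, with WT embryos at 85.3 to 88.9%, Het embryos at 88.9 to 92.5% and KO embryos at 91.3 to 93.3%. Summed markers of neurons and progenitors in the cells of at least 50% globin stood at 187, 139 and 195 CPM in WT, 93.4, 81.3, 45.3 and 131 CPM in Het, and 32.9, 63.8 and 61.8 CPM in KO. Since that scale includes globin itself, the same markers were also taken over UMIs that are not globin, where they stood at 1274 ± 82.4 CPM (SD, n = 3) in WT, 896 ± 228 CPM (n = 4) in Het and 692 ± 190 CPM (n = 3) in KO. At the 20% line they stood on that scale at 1736 ± 49.7 CPM in WT, 1380 ± 114 CPM in Het and 1540 ± 916 CPM in KO, with KO 3 at 2530 CPM above every WT embryo and KO 1 at 723 CPM below. The part of RNA from other cells in the genotype difference was not tested, and for KO vs WT the prefix cannot be told apart from the genotype.

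**Figure D4:**
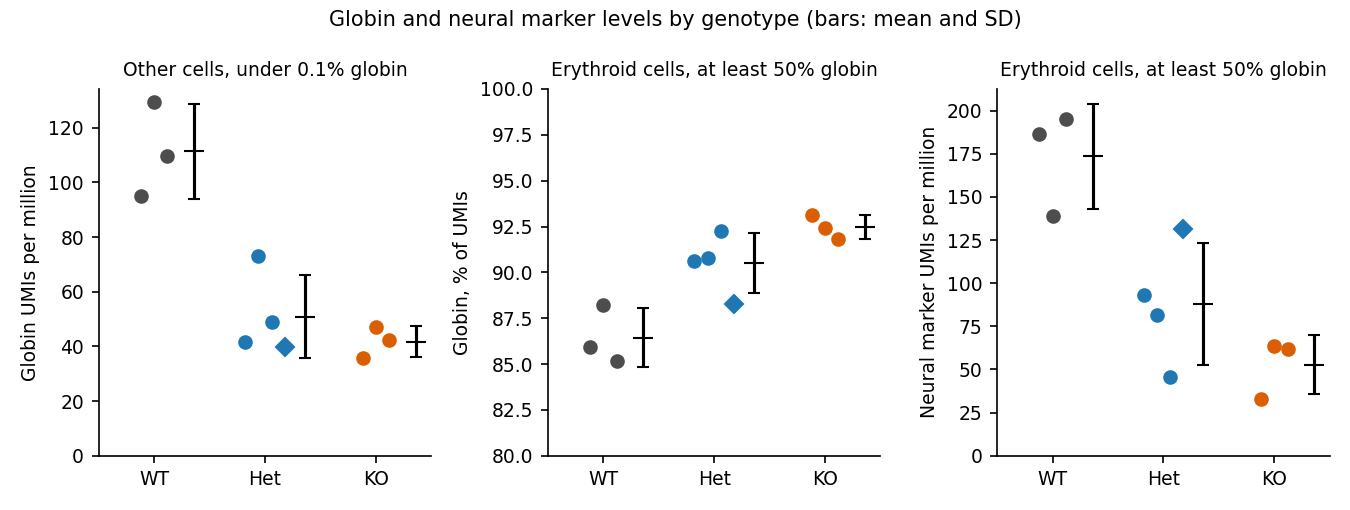
Each point is 1 embryo (Het 4 as a diamond) and bars are mean and SD: globin CPM in other cells with under 0.1% globin (left), and globin as a percent of UMIs (middle, an axis that does not start at 0) and CPM of neural markers (right) in adult-type erythroid cells with at least 50% globin. On the left, the 3 WT embryos lie at 95 to 129.5 CPM, above all 7 Het and KO embryos at 35.8 to 73.0 CPM, and in the middle the 3 KO embryos at 91.8 to 93.1% lie above the 3 WT embryos at 85.2 to 88.2%.

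Globin UMIs were also found outside the erythroid cells. Of the cells under the 20% line, 44.6 to 87.4% per embryo had at least 1 globin UMI, at a median of 10932 to 17203 UMIs per cell. Their summed globin level was 669, 740 and 436 CPM in WT 1 to 3, 70.2, 214, 645 and 414 CPM in Het 1 to 4, and 254, 203 and 732 CPM in KO 1 to 3, but cells with over 1% globin, 3 to 73 per embryo, gave 39.8 to 94.1% of these UMIs. With all cells under the 20% line, none of the 4 adult genes was called (3.13% of genes were in Het vs WT, 24.7% in KO vs WT and 5.68% in KO vs Het), with log2 fold changes of -1.13 to -0.78 in Het vs WT and -0.90 to -0.52 in KO vs WT and standard errors of 0.54 to 0.74.

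In the cells with under 0.1% globin, 62703 in all, the level was 95, 129.5 and 109.7 CPM in WT 1 to 3, 41.8, 73.0, 49.1 and 39.6 CPM in Het 1 to 4, and 35.8, 47.0 and 42.4 CPM in KO 1 to 3. The means were 111.4 ± 17.3 CPM (SD, n = 3) in WT, 50.9 ± 15.3 CPM (n = 4) in Het and 41.7 ± 5.6 CPM (n = 3) in KO, and WT did not overlap the rest. Such separation was common among all genes. Over all cells outside the erythroid set, 19.7% of genes separated Het from WT embryos in full, and 52.7% separated KO from WT embryos. The same share for the cells with under 0.1% globin is not given here. Het 4, of the library prefix of WT, lay at 39.6 CPM with the other Het embryos. With edgeR all 4 adult genes, the only members tested, were called lower in Het vs WT, by -1.24 (Hba-a1) to -1.04 (Hba-a2) on the log2 scale, against 1.18% of genes called lower and 2.54% called in all, and in KO vs WT, by -1.53 (Hba-a1) to -1.35 (Hbb-bs), against 12.8% lower and 24.5% in all. None was called in KO vs Het (5.64% of genes called), where they ran from -0.36 to -0.26 with unadjusted p of 0.0695 to 0.228. The cell set was chosen after the data were seen and its upper limit is on globin itself. With the limit at 1% instead, no member was called, where 3.13% of genes were in Het vs WT, 24.7% in KO vs WT and 5.61% in KO vs Het. The level was 121.9 ± 19.2 CPM in WT, 114.9 ± 122.9 CPM in Het and 43.6 ± 5.62 CPM in KO, with Het 3 at 298 CPM above every WT embryo, and the log2 fold change of Hbb-bt in Het vs WT was 0.068.

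**Figure D5:**
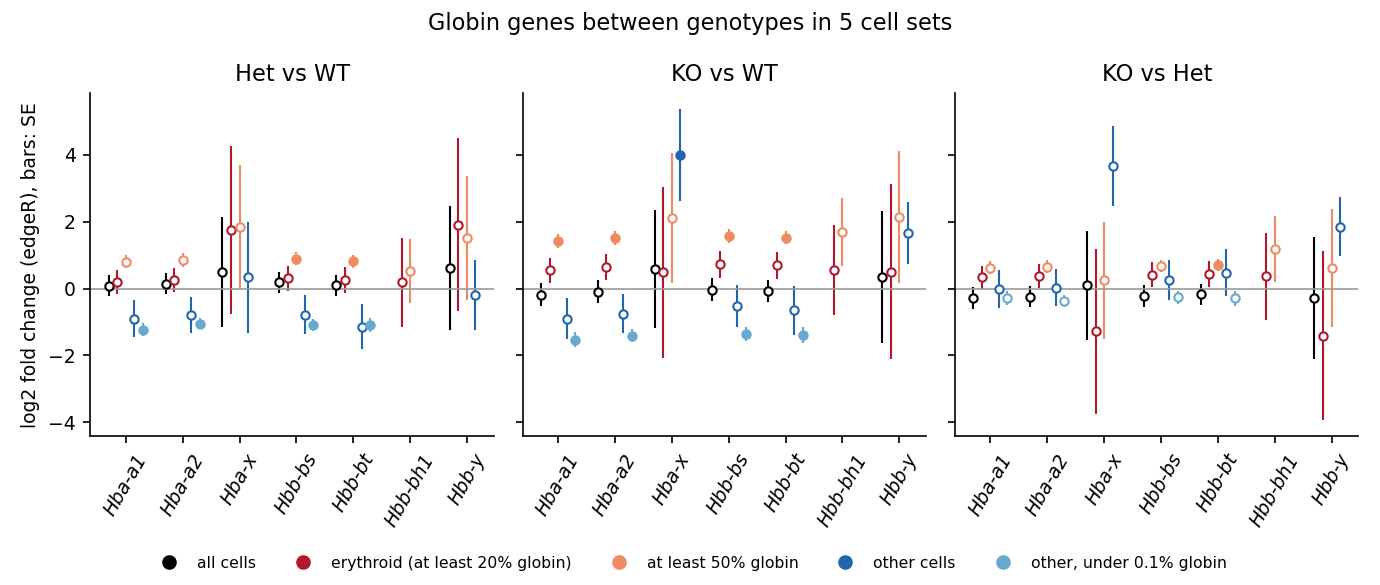
Log2 fold changes of the globin genes with standard errors in the 3 comparisons, in 5 cell sets, with filled points where edgeR called the gene. Over all cells and in erythroid cells from 20% globin no point is filled, in other cells Hba-x in KO vs WT is, and the adult genes are filled above 0 in cells with at least 50% globin and below 0 in other cells with under 0.1% globin in KO vs WT.

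Of the embryonic genes, Hba-x was called in the cells under the 20% line. Its level there was 0.0370, 0.0425 and 0.123 CPM in WT 1 to 3, 0, 0.0223, 0.0105 and 0.261 CPM in Het 1 to 4, and 0.0286, 0.287 and 2.86 CPM in KO 1 to 3. KO 3, with its 2 barcodes just under the line, stood above all others and KO 1 below every WT embryo. The log2 fold change in KO vs WT was 3.99 ± 1.37 (SE, edgeR adjusted p = 0.0400), the 1 member of 6 called where 24.7% of genes were. Without KO 3 the log2 fold change was 1.16 and not called, and it was 0.74 in cells with at most 1% globin. The call was also lost with log2 fold changes near or above the first: 3.98 with DESeq2 (adjusted p = 0.0645), 8.44 with the library prefix as a covariate (adjusted p = 0.0685), 4.00 with the line at 50% globin, and 3.72, 3.75 and 4.70 without WT 1, 2 and 3. With at least 3000 UMIs per cell, or without the barcodes of mostly embryonic globin, Hba-x was not among the genes tested. In KO vs Het it was 3.66 (adjusted p = 0.0874), and it was called there without Het 4 (6.47), without KO 1 (4.24) or with the prefix as a covariate (6.47), where 5.9%, 4.13% and 5.89% of genes were called, while without KO 3 it was 0.86.

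The low globin level outside red cells overlapped between cell classes. In cells with at most 1% globin, classed by markers, it was 119 ± 74.8 CPM in microglia-like cells, 99.9 ± 76.4 CPM in mural-like cells, 91.9 ± 48.1 CPM in inhibitory neuron-like cells, 81.6 ± 67.8 CPM in excitatory neuron-like cells and 63.0 ± 29.6 CPM in progenitor-like cells (SD, n = 10 embryos). Neighbours in that order did not differ beyond their spread. Globin UMIs per cell stood in another order. They were 1.60 ± 1.44 in excitatory neuron-like, 1.29 ± 0.582 in progenitor-like and 1.26 ± 0.932 in mural-like cells (SD). Inhibitory neuron-like cells had 0.932 ± 0.512 and microglia-like cells 0.913 ± 0.529. Median UMIs per cell of these classes were 17888, 18113, 12158, 8678 and 3897. The part of depth in the order of CPM was not tested. Endothelial-like cells had 377 ± 778 CPM, with a highest embryo at 2553 CPM against a median of 91.7, while erythroid cells stood at 813795 ± 37711 CPM. In each of these classes outside the erythroid cells the WT embryos lay above the KO embryos. Such separation was common: over all cells outside the erythroid set, 52.7% of genes separated KO from WT embryos in full. There 19.7% separated Het from WT embryos, and the same shares for each class are not given here. Mural-like and microglia-like cells held 222 and 235 globin UMIs over all embryos. The Het embryos lay below every WT embryo in inhibitory neuron-like cells, at 48.0 to 104 CPM against 123 to 182 CPM. They also did in progenitor-like cells, at 40.9 to 63.2 CPM against 91.8 to 122 CPM. In the other classes the Het range overlapped that of WT. In excitatory neuron-like cells WT lay at 88.1 to 119 CPM, KO at 35.3 to 41.8 and Het at 37.4 to 255, and in mural-like cells WT lay at 108 to 153 CPM, KO at 43.8 to 87.1 and Het at 13.4 to 275.

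Whether that level followed the share of kept cells that were erythroid was asked over embryos. The number of erythroid cells itself was not correlated. Over the 10 embryos the correlation of the erythroid share with globin CPM in cells of under 0.1% globin had a Pearson r of 0.539 (permutation p = 0.110) and a Spearman rho of 0.624 (permutation p = 0.0597), with adjusted p of 0.166 and 0.133 over 3 relations. Without WT 2 and Het 4 r was 0.265, while within the 6 embryos of 1 prefix, which include neither, it was 0.594. In cells with at most 1% globin r was 0.539 (permutation p = 0.0974) and 0.520 without these 2 embryos. Against all cells under the 20% line r was -0.0146 (permutation p = 0.968). Among the genes most alike to the summed globin level over the 10 embryos were Rrp12 (r = 0.936), Rgs5 (0.910), a gene of pericytes, Dctn4 (0.909) and B3galt6 (0.894). They were picked for the highest r among all genes with a mean of at least 1 CPM. A search over so many genes gives high r by chance with 10 embryos, so these values are a description.

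Other genes of the red cell were read from lists. In erythroid cells none of them was called in any comparison. Over all cells 24.5% of the genes tested were called in KO vs WT, 12.5% lower and 12% higher, and the counts below are read against these shares. Heme synthesis had 1 of 8 tested genes called lower (Cpox, log2 fold change -0.27). The membrane skeleton had 3 of 7 called lower and 0 higher, among them Sptb (-0.70) and Ank1 (-0.31), with a list median of -0.68 against -0.01 over all genes. Spectrin and ankyrin genes are also used by neurons. Among other erythroid genes 3 of 6 were lower, among them Car2 (-0.72) and Bpgm (-0.41). Of the erythroid transcription factors tested, Nfe2 (-1.76) and Tal1 (-0.60) were lower and Ldb1 (0.27) higher, 3 of 6.

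Of the 12 regulators of globin switching 3 were called in KO vs WT, near the 24.5% of all genes, all of them higher (12% of all genes): Bcl11a (0.30), the repressor of embryonic and fetal globin genes, Sox6 (0.42), its partner at those genes, and Igf2bp1 (0.31), an RNA-binding protein of the fetal program. The list median was -0.04 against -0.01 over all genes, and these 3 genes are also expressed in cortical cells, which make up most of the sum. Of 15 NuRD subunits, with Gatad2b itself among them, 4 were higher, Cdk2ap1 (1.06), Hdac1 (0.54), Gatad2a (0.45) and Mbd2 (0.26), and 2 lower, Gatad2b and Chd5. Among the other globin family genes Cygb (cytoglobin) was higher (0.44) and Hbq1b lower (-1.14), of 4 tested. In Het vs WT, where 2.98% of all genes were called, the listed genes called were Gatad2b (-0.54) and Tal1 (-0.84), lower, and Hdac1 (0.26) and Cdk2ap1 (0.62), higher. In KO vs Het, where 5.50% were, they were Gatad2b (-0.78), lower, and Hdac1 (0.28), Gatad2a (0.32), Bcl11a (0.26), Cygb (0.34) and Tfrc (0.25), higher. The comparisons with WT share the WT embryos.

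In the cells under the 20% line, 4 of 5 membrane genes tested were called lower in KO vs WT, against 13.1% of all genes lower and 24.7% called, among them Slc4a1 (-4.23), Sptb (-0.72) and Ank1 (-0.32), with a list median of -0.72 against -0.01 over all genes, and Hbq1b was lower by -1.73. Car2 (-0.74) and Bpgm (-0.54) were lower as well, and Cpox (-0.28) was the 1 heme synthesis gene called. Slc4a1 had a UMI in 0.0452% of these cells, so its value rests on few cells.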

How the data were processed

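Whole cortices of 10 embryos were profiled by 10x 3′ single-cell RNA-seq with 1 library each. The authors deposited filtered matrices of raw UMI counts per gene and cell, aligned to mm10, and the submitters' processing notes name Cell Ranger 6.0.2. The deposited counts were not normalized. Doublets were not removed and ambient RNA was not subtracted. UMIs were added up per embryo for erythroid cells, other cells and both together, and tested with edgeR 4.0.16 (filterByExpr, TMM, quasi-likelihood F-test, Benjamini-Hochberg over all genes tested; R 4.3.3) with genotype as the sole term and all 10 embryos in 1 fit. DESeq2 1.42.0 was an alternative. Shares were compared by two-sided exact permutation over embryos (scipy 1.17.1). The permutation of group means and the edgeR fit were tested on simulated data. Cell classes were called at 3 of 6 markers. The genes named are the 7 globin genes, the listed genes called in a comparison and the 5 genes most alike to a pattern, beside the erythroid markers and genes from the Hbb-bt split that were picked after their values were seen. Some genes that this rule names are not reported here. The members and lists were chosen with earlier results of these data known. Other settings were the UMI, mitochondrial and globin limits, scaling, filters, the replicate number, the library prefix and each embryo left out. The planned comparison of all genes between mostly embryonic and other erythroid cells was not run, because no embryo had 10 such cells. Embryos were separate animals, so p-values measure the spread between animals prepared as 1 library each. Promoter windows are from RefSeq and transcripts from GENCODE.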

Additional observations from a re-analysis of the deposited data

Results flagged for a closer look

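Among 24 groups of 4 embryos tested for a single embryo far from the rest, 6 stood out. Chance gives about 1 in 20 for separate measures with normal spread. The measures here overlap, so the count of 6 is not read against that rate. Of the 6, 4 were Het 4. Its embryonic share of globin UMIs was 0.670% over all cells, 0.712% in erythroid cells and 0.0903% in other cells, above the other Het embryos, and its erythroid share of cells was 1.20%, below them. Het 1 had the lowest alpha-type share in erythroid cells among Het embryos, 30.7%. In Het 3, 5.54% of the cells outside the erythroid set held at least 20 globin UMIs at 0.1 to 5% of their total. Outside the kept cells, 5 barcodes with mostly embryonic globin failed the cell filters. The causes were not tested.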

How the results depend on the processing

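Over all settings, 938 of 1106 log2 fold changes of globin genes, 195 of 239 shares and 155 of 183 counts of members called kept their direction and their side of the threshold (counts within 1.5 times). Embryonic genes rest on few cells, so 1 embryo turns their direction, and depth limits shares of embryonic globin below the level of 1 cell. The alternatives planned for the comparison of mostly embryonic with other erythroid cells were not run. The cause of each change was not tested, except that leaving out an embryo with mostly embryonic cells removes those cells. Differences of shares are in percentage points.

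With at least 3000 UMIs per cell the changed values were the embryonic share in other cells, slope per mutant allele, 0.0306 points, and members called, 0 in KO vs WT (other cells), and log2 fold change in KO vs Het (all cells), Hbb-y 0.29. With no filter on cells the changed values were the embryonic share in other cells, Het minus WT, -0.0754 points, and the embryonic share in other cells, slope per mutant allele, 0.0511 points, and the embryonic share of erythroid minus other cells, -0.00416 points. With at most 5% mitochondrial UMIs the changed values were the embryonic share in other cells, KO minus Het, 0.245 points, and the erythroid share of cells, Het minus WT, 0.338 points. With erythroid cells from 10% globin the changed values were the embryonic share in other cells, Het minus WT, -0.00578 points, and the embryonic share in other cells, slope per mutant allele, 0.0338 points. With erythroid cells from 50% globin the changed values were the embryonic share in other cells, KO minus Het, -0.395 points, and the embryonic share in other cells, slope per mutant allele, 0.0445 points, and the embryonic share of erythroid minus other cells, -0.132 points, and members called, 2 in Het vs WT (erythroid cells), 4 in KO vs WT (erythroid cells), 1 in KO vs Het (erythroid cells), 0 in KO vs WT (other cells), and log2 fold change in KO vs Het (erythroid cells), Hba-x 0.26, Hbb-y 0.61, and log2 fold change in Het vs WT (other cells), Hba-a2 0.0069, Hbb-bs 0.045, Hbb-y 5.77, and log2 fold change in KO vs Het (other cells), Hba-a2 -0.35, Hbb-bs -0.20, Hbb-bt -0.19, Hbb-y -4.10. With a mean over cells the changed values were the embryonic share in other cells, slope per mutant allele, 0.0543 points. With beta-type genes alone the changed values were the embryonic share in other cells, Het minus WT, -0.00166 points. With alpha-type genes alone the changed values were the embryonic share in other cells, slope per mutant allele, 0.375 points. In other cells with at most 1% globin the changed values were the embryonic share in other cells, slope per mutant allele, 0.140 points, and members called, 0 in KO vs WT (other cells), and log2 fold change in Het vs WT (other cells), Hbb-bt 0.068, and log2 fold change in KO vs Het (other cells), Hba-a2 -1.39, Hbb-bs -1.34, Hbb-bt -1.53. In other cells with under 0.1% globin (added after seeing the data, as are the others marked added) the changed values were the embryonic share in other cells, slope per mutant allele, 0.0563 points, and members called, 4 in Het vs WT (other cells), 4 in KO vs WT (other cells), and log2 fold change in KO vs Het (other cells), Hba-a2 -0.36, Hbb-bs -0.26, Hbb-bt -0.29. Within 1 library prefix (added) the changed values were the embryonic share in erythroid cells, KO minus Het, 0.0569 points, and members called, 3 in KO vs Het (all cells), and log2 fold change in KO vs Het (all cells), Hbb-y 1.77, and log2 fold change in KO vs Het (other cells), Hba-a1 0.094. For that fit the share of all genes called is not given here, so the count of members is not read as a result. Without cells of mostly embryonic globin (added) the changed values were the embryonic share in other cells, Het minus WT, -0.00998 points, and the embryonic share in other cells, slope per mutant allele, 0.00302 points, and members called, 0 in KO vs WT (other cells). With the library prefix as a covariate, which Het 4 alone ties to the genotypes the changed values were members called, 3 in Het vs WT (all cells), 4 in KO vs WT (all cells), 2 in KO vs Het (all cells), 0 in KO vs WT (other cells), 1 in KO vs Het (other cells), and log2 fold change in Het vs WT (all cells), Hba-a1 -1.34, Hba-a2 -1.27, Hbb-bs -1.26, Hbb-bt -1.22, and log2 fold change in KO vs Het (all cells), Hbb-y 1.77, and log2 fold change in KO vs Het (erythroid cells), Hba-x 2.60, Hbb-y 2.61, and log2 fold change in Het vs WT (other cells), Hbb-y 1.17, and log2 fold change in KO vs Het (other cells), Hba-a1 0.092. With DESeq2 the changed values were members called, 0 in KO vs WT (other cells), and log2 fold change in KO vs Het (erythroid cells), Hbb-bh1 -0.057, and log2 fold change in KO vs Het (other cells), Hba-a1 0.0033. From 50% globin and with no scaling factors (added) the changed values were log2 fold change in Het vs WT (erythroid cells), Hba-a1 -0.012, Hbb-bh1 -0.13, and log2 fold change in KO vs WT (erythroid cells), Hba-a1 -0.031, and log2 fold change in KO vs Het (erythroid cells), Hba-a1 -0.019. With no scaling factors (added) the changed values were log2 fold change in Het vs WT (erythroid cells), Hba-a1 -0.040, Hbb-bt -0.0044, and log2 fold change in KO vs WT (erythroid cells), Hba-a1 -0.049, and log2 fold change in KO vs Het (erythroid cells), Hba-a1 -0.0087. With DESeq2's size factors the changed values were log2 fold change in KO vs Het (other cells), Hba-a1 0.0057. With no filter on low counts the changed values were log2 fold change in KO vs Het (other cells), Hba-a1 0.0013. With the 2 compared groups alone the changed values were log2 fold change in KO vs Het (other cells), Hba-a1 0.0028.

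Same-numbered embryos did not deviate together (r of -0.185 to 0.126 over 9 pairs), so the numbers do not pair them. Het 4 has no same-numbered partner, so the block left it out of the share differences, which equal those without Het 4. With the replicate number as a block the values that changed were: the embryonic share in erythroid cells, Het minus WT, -0.0346 points. The embryonic share in erythroid cells, KO minus Het, 0.0569 points. The embryonic share in other cells, Het minus WT, -0.0165 points. The erythroid share of cells, Het minus WT, 0.249 points. Members called, 4 in Het vs WT (all cells), 4 in KO vs Het (all cells), 2 in KO vs WT (other cells), 2 in KO vs Het (other cells). The share of all genes called in the block fit is not given here, so these counts are not read as a result. Log2 fold change in Het vs WT (all cells), Hba-x -1.20, Hbb-y -0.82. Log2 fold change in KO vs Het (all cells), Hbb-y 1.24. Log2 fold change in Het vs WT (erythroid cells), Hba-x -0.92, Hbb-bh1 -0.47, Hbb-y -0.70. Log2 fold change in KO vs Het (erythroid cells), Hba-x 1.73, Hbb-y 1.73. Log2 fold change in Het vs WT (other cells), Hba-x -2.71. Log2 fold change in KO vs Het (other cells), Hba-a1 0.23.

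Leaving out each embryo in turn gave ranges of -0.0346 to 0.203 points for the embryonic share in erythroid cells, Het minus WT, -0.0508 to 0.0733 points for the embryonic share in erythroid cells, KO minus WT, -0.190 to 0.0569 points for the embryonic share in erythroid cells, KO minus Het, -0.0122 to 0.0394 points for the embryonic share in erythroid cells, slope per mutant allele, -0.0165 to 0.0189 points for the embryonic share in other cells, Het minus WT, 0.0402 to 0.130 points for the embryonic share in other cells, slope per mutant allele, -0.552 to 0.249 points for the erythroid share of cells, Het minus WT, -0.0371 to 0.0809 points for the embryonic share of erythroid minus other cells. Members called ranged over 0 to 2 in Het vs WT (all cells), 0 to 2 in KO vs Het (all cells), 0 to 1 in KO vs WT (other cells), 0 to 1 in KO vs Het (other cells). The log2 fold changes ranged, in Het vs WT (all cells), from -0.13 to 0.36 for Hba-a1, -0.072 to 0.42 for Hba-a2, -1.47 to 5.79 for Hba-x, -0.019 to 0.46 for Hbb-bs, -0.13 to 0.36 for Hbb-bt, -1.43 to 7.18 for Hbb-y. They ranged, in KO vs WT (all cells), from -0.19 to 0.023 for Hba-a2, -1.12 to 5.88 for Hba-x, -0.14 to 0.097 for Hbb-bs, -0.20 to 0.041 for Hbb-bt, -4.57 to 6.89 for Hbb-y. They ranged, in KO vs Het (all cells), from -1.61 to 2.06 for Hba-x, -0.43 to 0.050 for Hbb-bt, -5.19 to 1.77 for Hbb-y. They ranged, in Het vs WT (erythroid cells), from -0.071 to 0.38 for Hba-a1, -0.014 to 0.44 for Hba-a2, -2.11 to 9.92 for Hba-x, -0.028 to 0.44 for Hbb-bt, -0.28 to 5.43 for Hbb-bh1, -2.09 to 11.48 for Hbb-y. They ranged, in KO vs WT (erythroid cells), from -11.20 to 8.59 for Hba-x, -0.099 to 5.63 for Hbb-bh1, -7.26 to 10.02 for Hbb-y. They ranged, in KO vs Het (erythroid cells), from -0.18 to 0.62 for Hba-a1, -0.16 to 0.66 for Hba-a2, -12.95 to 2.57 for Hba-x, -0.16 to 0.70 for Hbb-bs, -0.19 to 0.73 for Hbb-bt, -0.24 to 0.66 for Hbb-bh1, -9.17 to 2.57 for Hbb-y. They ranged, in Het vs WT (other cells), from -2.46 to 1.03 for Hba-x, -0.76 to 0.70 for Hbb-y. They ranged, in KO vs Het (other cells), from -0.74 to 0.55 for Hba-a1, -0.68 to 0.58 for Hba-a2, -0.48 to 0.76 for Hbb-bs, -0.41 to 1.10 for Hbb-bt.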
